A study of Homo sapiens with 6 samples.

Results

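APLF, DCLRE1C and C9orf142 encode 3 accessory factors of non-homologous end joining, and the RNA of each was listed by the study as bound to PD-L1. They were taken by gene name from the authors' table of PD-L1 binding RNAs, with a single row each, so they are 3 of 3152 listed RNAs. All 3 are also on the authors' deposited list of 207 DNA damage genes. The members were chosen by name with their 6 scores known, and the table itself was selected on the same scores, since it keeps only RNAs that the authors found at least 5-fold higher with PD-L1 than with IgG. Their scores are therefore given below as a description, with no test.

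The study performed RNA immunoprecipitation in MDA-MB-231 cells, an established line derived from a triple-negative human breast cancer. Lysates of formaldehyde-fixed, sonicated cells were incubated with an antibody against PD-L1, the cell-surface ligand through which tumour cells engage the T cell receptor PD-1, or with an isotype IgG that measures RNA held by antibody and beads. There were 3 PD-L1 libraries and 3 IgG libraries, named repeats 1 to 3 in each group, all from the same line with no treatment named in the labels. Whether repeats came from separate cultures is not stated, so the spread between them may be technical. No input library was analysed here, so a high score cannot be told apart from a high amount of that RNA in the lysate.

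Non-homologous end joining rejoins the ends of a broken DNA double strand without a template. The Ku heterodimer holds the ends, the kinase DNA-PKcs is recruited to them, nucleases and polymerases trim and fill them, and XRCC4 with DNA ligase IV seals them. APLF is a scaffold protein that binds Ku, XRCC4 and poly(ADP-ribose) and so helps to assemble the complex at breaks. DCLRE1C encodes Artemis, the nuclease that is activated by DNA-PKcs, opens DNA hairpins during V(D)J recombination and trims damaged ends. C9orf142 is the older symbol of PAXX, a structural relative of XRCC4 and XLF that binds Ku and stabilises the assembled complex.

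The coding ends of the 3 RNAs are shown because these RNAs differ in base composition and in length, which the choice of members did not use. For each, the first and the last 60 coding bases of the GENCODE 29 transcript with the longest coding sequence are printed 5′ to 3′ as DNA letters of the coding strand, with the start or stop codon in capitals.
APLF, chromosome 2, plus strand, coding start: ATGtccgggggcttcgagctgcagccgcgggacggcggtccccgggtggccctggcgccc
APLF, coding end: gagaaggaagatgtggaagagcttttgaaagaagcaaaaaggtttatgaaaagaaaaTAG
DCLRE1C, chromosome 10, minus strand, coding start: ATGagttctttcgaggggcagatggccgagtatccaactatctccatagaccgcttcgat
DCLRE1C, coding end: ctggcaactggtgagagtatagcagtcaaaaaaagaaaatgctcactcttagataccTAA
C9orf142, chromosome 9, plus strand, coding start: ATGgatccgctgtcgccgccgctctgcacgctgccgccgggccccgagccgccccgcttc
C9orf142, coding end: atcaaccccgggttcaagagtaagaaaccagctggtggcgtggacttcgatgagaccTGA

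The G+C share of the APLF stretches is 80% at the start and 33.3% at the end, that of the DCLRE1C stretches 50% and 38.3%, and that of the C9orf142 stretches 78.3% and 53.3%. Over the whole coding sequence it is 43.0% for APLF, 43.5% for DCLRE1C and 66.3% for C9orf142. The encoded proteins have 511, 692 and 204 amino acids.

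The 6 libraries were not alike beyond the antibody. Summed over the table, scores came to 123921 in PD-L1 repeat 3, to 206525 and 217732 in repeats 1 and 2, and to between 8353 and 19288 in the IgG libraries. PD-L1 repeat 3 was below both other PD-L1 repeats in 63.8% of listed RNAs and above both in 23.9%. A score is the sum of the peak scores the authors assigned to a gene, and 0 stands for no scored peak. The smallest scores above 0 were 2.02, 1.81 and 3.72 in PD-L1 repeats 1 to 3, and 2.42, 2.06 and 2.06 in IgG repeats 1 to 3. Among markers of this line BRAF, NF2 and CD274 were listed, and 0 of 4 epithelial and 0 of 4 immune cell markers were. A table of enriched RNAs does not show which RNAs the cells lacked.

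APLF scored 46.4 in PD-L1 repeat 1, 45.7 in repeat 2 and 59.7 in repeat 3, and 0 in all 3 IgG libraries. All 3 PD-L1 libraries were high, repeat 3 was the highest, and the groups did not overlap. The mean PD-L1 score was 50.6 ± 7.88 (SD, n = 3). On the log2(score + 1) scale the difference between PD-L1 and IgG was 5.68 ± 0.12 (SE of the difference), larger than that of 3035 of the 3152 listed RNAs. Because IgG was at 0, this difference equals the PD-L1 level itself on that scale, and no fold is given. For the same reason its SE holds only the spread of the PD-L1 repeats. By mean PD-L1 score APLF was above 65.8% of listed RNAs, so the rank of its difference rests also on its IgG scores of 0. Within the list of 207 DNA damage genes 13 RNAs had a larger difference.

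**Figure D1:**
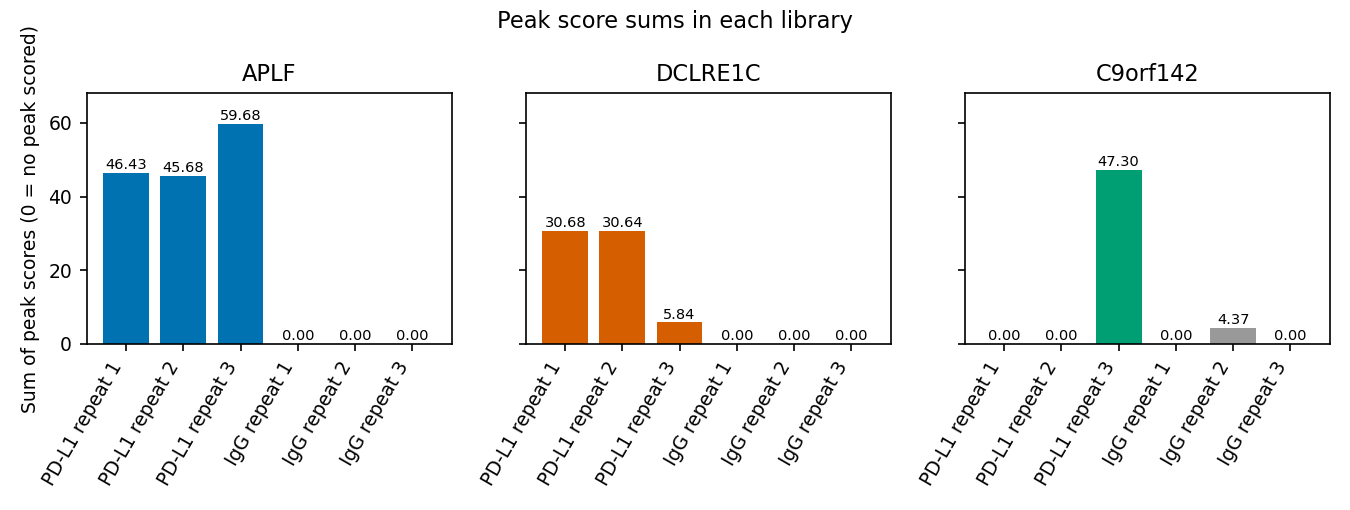
Sum of peak scores of APLF, DCLRE1C and C9orf142 (vertical axis, from 0) in each of the 6 libraries (horizontal axis); coloured bars are PD-L1 repeats, grey bars IgG repeats, and the number above a bar is its score. APLF is high in all 3 PD-L1 repeats, DCLRE1C mainly in repeats 1 and 2, and C9orf142 in repeat 3 alone.

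DCLRE1C scored 30.7 in PD-L1 repeat 1, 30.6 in repeat 2 and 5.84 in repeat 3, and 0 in all 3 IgG libraries. Repeats 1 and 2 were nearly equal, repeat 3 was low, and the groups still did not overlap. The mean PD-L1 score was 22.4 ± 14.3 (SD, n = 3). The log2 difference from IgG was 4.25 ± 0.74 (SE, again from the spread of the PD-L1 repeats alone). Without PD-L1 repeat 3 that difference was 4.98, and the remaining pair of PD-L1 repeats differed by an SD of only 0.0013 on the log2 scale. The mean of repeats 1 and 2 was 5.25 times the score of repeat 3. Repeats 1 and 2 were each at least 5 times repeat 3 in 163 of the listed RNAs (5.17%), of which 22 were at 0 in all IgG libraries. Within each library all scores below 10 were whole multiples of 1 fixed step, and the score of 5.84 equals 33 such steps of 0.177.

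C9orf142 scored 0 in PD-L1 repeat 1, 0 in repeat 2 and 47.3 in repeat 3, against 0, 4.37 and 0 in IgG repeats 1 to 3. A single library of each group carried all of the signal, and the groups overlapped, since PD-L1 repeats 1 and 2 lay below IgG repeat 2. The IgG score of 4.37 equals 17 such steps of 0.257. The mean score was 15.8 ± 27.3 (SD, n = 3) with PD-L1 and 1.46 ± 2.52 (SD, n = 3) with IgG, a ratio of means of 10.8. Of the 2152 listed RNAs with an IgG mean above 0, 51.5% had a smaller ratio, and the smallest ratios of all were 5.01 for AMMECR1L and 5.01 for ICA1L. RNAs below the authors' 5-fold were not analysed here.

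The log2 difference of C9orf142 was 1.06 ± 2.03 (SE), smaller than its own error and, on the deposited scale, the smallest of all 3152 listed RNAs. That rank depends on the scaling, since with libraries brought to equal sums the difference was 0.24 and 23.9% of listed RNAs had a smaller one. Without PD-L1 repeat 3 the log2 difference was -0.81, with C9orf142 lower with PD-L1 than with IgG. It was the only 1 of the 3152 RNAs whose mean over PD-L1 repeats 1 and 2 was below its IgG mean, while 103 RNAs (3.27%) were under 5-fold in those 2 repeats alone.

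Of the 3 RNAs, APLF and DCLRE1C had PD-L1 scores that all lay above every IgG score, as did 95.9% of all listed RNAs. The same pair was at 0 in all 3 IgG libraries, as were 31.7% of all listed RNAs. The authors' criterion used these scores, so nothing is read from these counts.

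Agreement of the PD-L1 repeats separated the 3 RNAs widely. The SD of the PD-L1 repeats on the log2(score + 1) scale was 0.21 for APLF, 1.28 for DCLRE1C and 3.23 for C9orf142. The median over all listed RNAs was 0.48, with quartiles of 0.26 and 0.78. As deposited, 17.9% of listed RNAs had a smaller SD than APLF, but with libraries brought to equal sums over the listed RNAs its SD was 0.64 and 70.5% had a smaller one. DCLRE1C had a larger SD than 92.4% of listed RNAs as deposited, and than 83.4% with equal sums, where its SD was 0.83. C9orf142 had the largest SD of all listed RNAs on both scales. In the list of 207 DNA damage genes 18 RNAs had a larger SD than DCLRE1C as deposited.

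**Figure D2:**
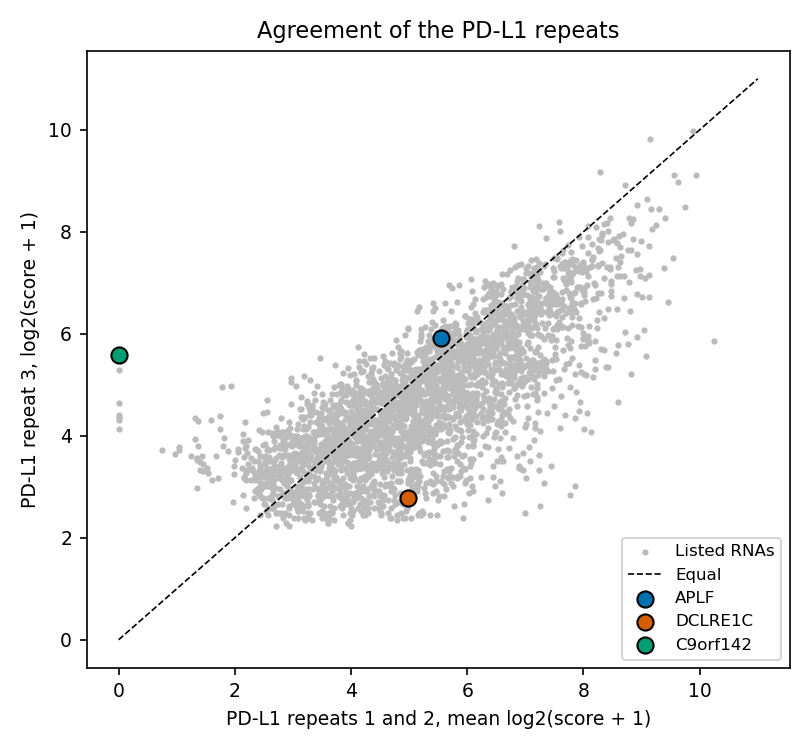
Mean log2(score + 1) of PD-L1 repeats 1 and 2 (horizontal axis) against log2(score + 1) of PD-L1 repeat 3 (vertical axis), with 1 grey point per listed RNA and a dashed line of equal values. APLF lies 0.37 above the line, DCLRE1C is at -2.21 relative to it, and C9orf142 lies at 0 on the horizontal axis, 5.59 above the line.

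The departures had opposite directions. PD-L1 repeat 3 minus the mean of repeats 1 and 2, on the log2(score + 1) scale, was 0.37 for APLF, -2.21 for DCLRE1C and 5.59 for C9orf142. Over all listed RNAs the median of this quantity was -0.45, with quartiles of -1.16 and 0.14. The value of DCLRE1C was lower than that of 2960 listed RNAs, and the value of C9orf142 was the highest in the table.

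Every listed RNA had a score above 0 in PD-L1 repeat 3, while 24 were at 0 in repeat 1 and 19 in repeat 2. The table therefore holds no RNA that lacked repeat 3. In all, 7 RNAs were at 0 in both PD-L1 repeats 1 and 2. This set of 7 was formed after its values were seen. C9orf142 had the highest repeat 3 score of the 7, followed by PAFAH1B1, a regulator of cytoplasmic dynein, at 37.9. The meiotic cohesin subunit REC8 had 23.9, the readthrough gene RBM14-RBM4 20.2, the tyrosine phosphatase PTPN1 19.7, the uroplakin UPK1A 18.8 and OCEL1 16.6. C9orf142 was the only 1 of these 7 with a score above 0 in an IgG library.

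**Figure D3:**
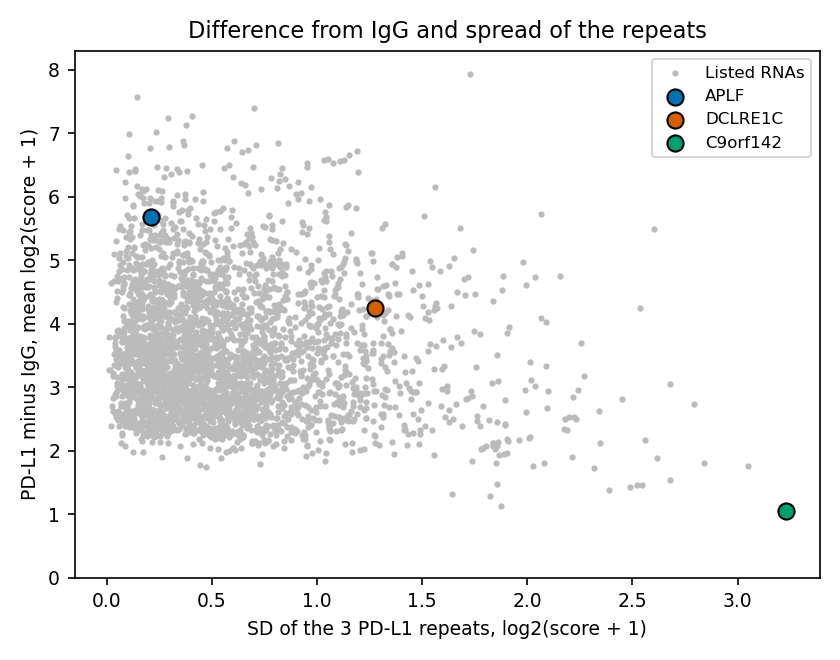
SD of the 3 PD-L1 repeats (horizontal axis) against the difference of group means, PD-L1 minus IgG (vertical axis), both on the log2(score + 1) scale, with 1 grey point per listed RNA. APLF combines a difference of 5.68 with an SD of 0.21, DCLRE1C lies at 4.25 and 1.28, and C9orf142 lies at 1.06 and 3.23, in the lower right corner.

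The listed RNAs with the most similar scores were found by Euclidean distance over the 6 log2(score + 1) values. For APLF these were METTL4 at a distance of 0.099, OSGEP at 0.20 and ZNF215 at 0.35, all 3 at 0 with IgG. METTL4, for example, scored 48.6, 45.0 and 62.7 in PD-L1 repeats 1 to 3. For DCLRE1C the nearest were ZWILCH at 0.098, PARN at 0.19 and TMEM50B at 0.23, again all at 0 with IgG. ZWILCH scored 31.3, 31.9 and 6.20, the same low repeat 3 as DCLRE1C. C9orf142 had no close match over the 6 scores, with PAFAH1B1 at 2.44, SETMAR at 2.46 and REC8 at 2.61. The median distance of a listed RNA to its nearest was 0.37. PAFAH1B1 had a like PD-L1 pattern, with 0, 0 and 37.9 in repeats 1 to 3, but was at 0 with IgG. Most of its distance came from the IgG repeat 2 score of 4.37 of C9orf142. Among all listed RNAs 1 was farther from its nearest than C9orf142.

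The genes themselves also differ. In GENCODE 29 (build GRCh38, while the submitters' notes name hg19) C9orf142 spans 1567 bases, less than all but 23 of the 3129 listed genes with a protein-coding transcript of the same Entrez ID, which had a median of 58991. Its transcript has 812 bases, with 41 of these genes having a shorter one by the same rule, and a G+C content of 66.1%, higher than in 3102 of them. DCLRE1C was near the median in both span (57074 bases) and G+C content (43.7%, against a median of 43.9%), with a transcript of 2354 bases. APLF had a span of 188302 bases, a transcript of 3847 bases and a G+C content of 37.7%, which was higher than in 10.8% of listed genes. The transcripts of APLF, DCLRE1C and C9orf142 have 10, 14 and 7 exons.

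**Figure D4:**
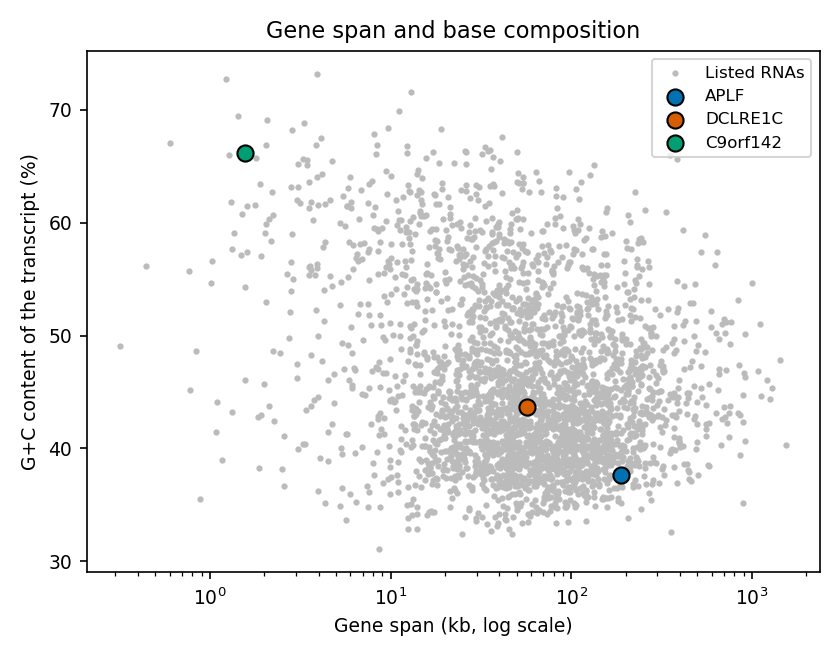
Gene span in kilobases on a log scale (horizontal axis) against G+C content of the transcript with the longest coding sequence (vertical axis), with 1 grey point for each of 3129 listed genes. C9orf142 lies at the upper left, with a short span and 66.1% G+C, DCLRE1C near the middle, and APLF toward the lower right.

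Across these 3129 RNAs, which are not independent replicates and share the same 6 libraries, the excess of PD-L1 repeat 3 over repeats 1 and 2 had a Spearman correlation of -0.35 with exon number. It was 0.064 with G+C content and -0.11 with gene span. The part of these features in the scores of C9orf142 or DCLRE1C was not tested.

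Neighbouring genes limit what can be assigned to APLF and DCLRE1C. In GENCODE 29 the APLF locus overlaps PROKR1, a prokineticin receptor gene on the same strand, by 12274 bases, while in the RefSeq table of build GRCh38 the gene is shorter (112578 bases) and the overlap is 0. PROKR1 was itself listed, with scores of 13.5, 11.2 and 23.4 in PD-L1 repeats 1 to 3 and 0, 2.83 and 3.09 with IgG. DCLRE1C overlaps SUV39H2, a histone methyltransferase gene on the opposite strand, by 6957 bases in GENCODE 29, and SUV39H2 was not analysed here. The libraries were stranded, but how peaks in a shared stretch were assigned to genes is not given in the sources used here.

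The other genes of the pathway were taken from a list of 40 end joining and break repair genes, drawn up with earlier results of these data known. Of these, 21 were listed, and the other 19, Ku (XRCC5 and XRCC6) and PRKDC among them, were not analysed here. Of the 21, 20 had PD-L1 scores that all lay above every IgG score, with C9orf142 as the exception, beside 95.9% of all listed RNAs. With libraries brought to equal sums over the listed RNAs the count was 9 of 21, beside 39.0% of all listed RNAs. Because the table keeps RNAs higher with PD-L1, equal sums lower PD-L1 and raise IgG scores above 0 by construction. The lower count is therefore not a separate result about these genes. The median log2 difference of the 21 was 3.72, against 3.42 over all listed RNAs, and 6 of them (28.6%) were at 0 in all IgG libraries, beside 31.7% of all listed RNAs. On the authors' DNA damage list were 19 of the 21, all but FAM35A and DNA2, so the list is not independent of the authors' own choice.

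Among 18 core end joining genes 8 were listed, with a median log2 difference of 3.65 from 1.06 for C9orf142 to 5.68 for APLF. The ligase RNA LIG4 scored 15.3, 10.9 and 17 in PD-L1 repeats 1 to 3 and 0, 0 and 6.69 with IgG. XRCC4, the partner of the ligase, scored 21.0, 23.0 and 9.38 and was at 0 in all IgG libraries. TDP2, a phosphodiesterase that frees ends blocked by topoisomerase II, had scores of 13.5, 13.2 and 15.4 with PD-L1 and of 0 in every IgG library. Core factors at 0 with IgG in all 3 libraries were thus APLF, DCLRE1C, XRCC4 and TDP2. They are 4 of the 8 listed core RNAs (50%), beside 31.7% of all listed RNAs, and this count was not tested. Listed RNAs without any IgG score also tended to score low with PD-L1. Their PD-L1 means had a median of 14.8, and those of all listed RNAs 31.2. That mean was 14.1 for TDP2, 17.8 for XRCC4, 22.4 for DCLRE1C and 50.6 for APLF. The SD of the PD-L1 repeats of TDP2 on the log2 scale was 0.11.

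A low PD-L1 repeat 3, as in DCLRE1C, was also found for other core RNAs. The gap-filling polymerase RNA POLL scored 91.2, 99.3 and 19.1 in PD-L1 repeats 1 to 3 and 0, 13.1 and 10.5 with IgG, with a repeat 3 value of -2.26 relative to repeats 1 and 2 on the log2 scale. The phosphodiesterase RNA TDP1 scored 74.4, 87 and 25.1 and 9.36, 14.2 and 13.1 with IgG. Among the 8 core RNAs repeat 3 was below both other repeats in 4 (DCLRE1C, XRCC4, POLL and TDP1) and above both in 4 (APLF, LIG4, TDP2 and C9orf142). Over all listed RNAs it was below both in 63.8% and above both in 23.9%, so a low repeat 3 was the commoner pattern of the whole table.

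**Figure D5:**
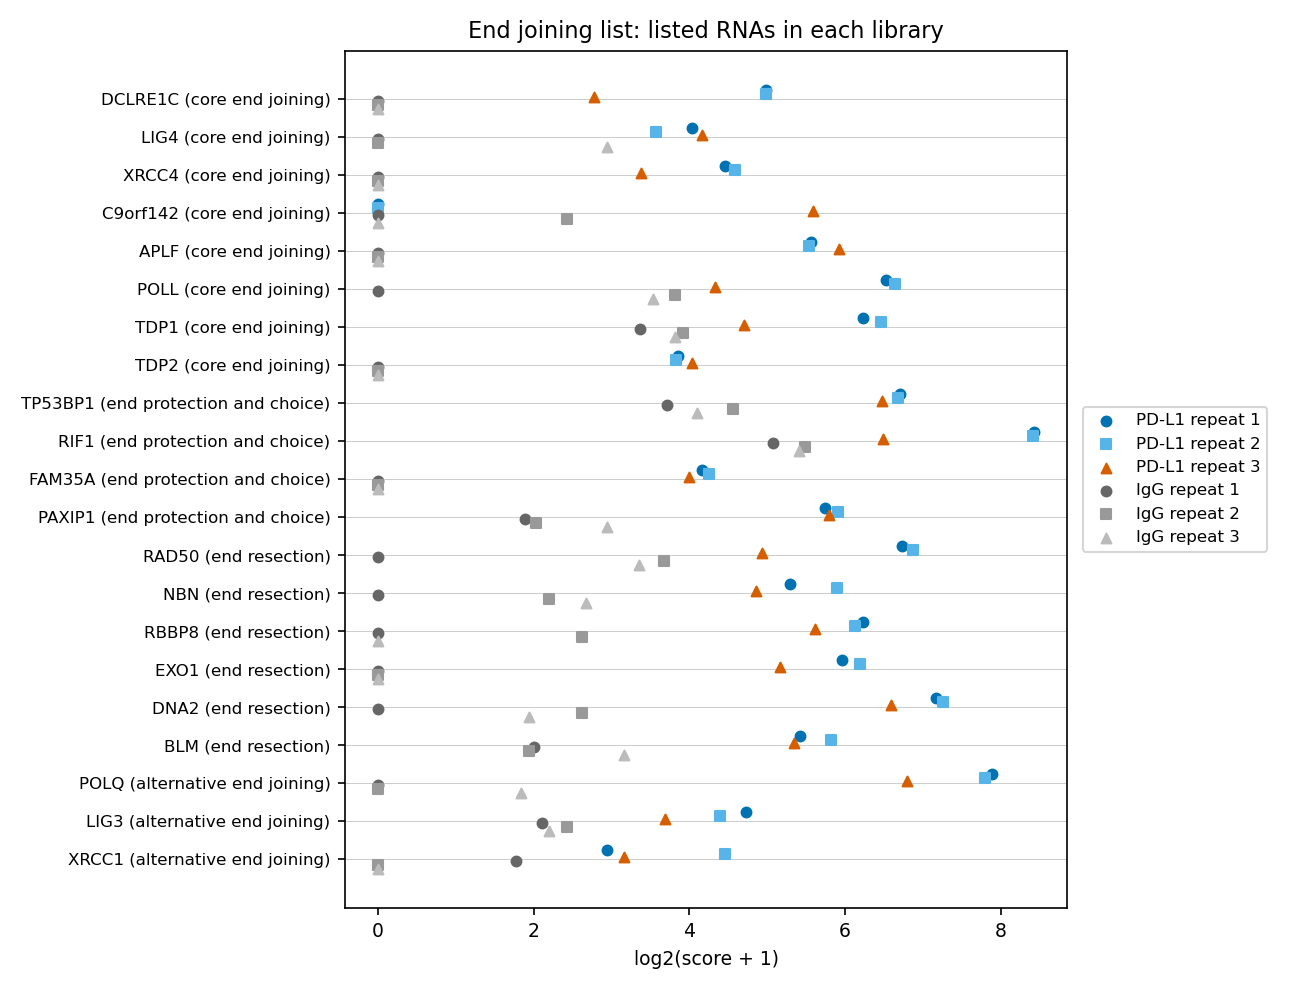
log2(score + 1) (horizontal axis) in each of the 6 libraries for the 21 listed RNAs of the end joining list (vertical axis, with the part of the list in brackets); blue symbols and the orange triangle are PD-L1 repeats, grey symbols IgG repeats. C9orf142 is the only 1 of the 21 in which PD-L1 and IgG symbols overlap, and DCLRE1C, POLL, RIF1 and RAD50 show the orange triangle of repeat 3 well to the left of the other PD-L1 repeats.

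For genes that protect ends or choose the repair pathway 4 of 10 were listed. TP53BP1, which shields ends from resection, scored 104, 102 and 88 against 12.1, 22.6 and 16.2 with IgG, and its partner RIF1 scored 345, 341 and 89 against 32.6, 44.0 and 41.4. FAM35A, a shieldin subunit, scored 16.9, 18.1 and 14.9 and was at 0 with IgG, while PAXIP1, a 53BP1 binding protein, had a log2 difference of 3.53 ± 0.33 (SE).

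For end resection, which competes with end joining, 6 of 7 genes were listed (RAD50, NBN, RBBP8, EXO1, DNA2 and BLM), with log2 differences from 3.16 for BLM to 5.77 for EXO1. PD-L1 repeat 3, whose summed score was the lowest of the PD-L1 libraries, was below both other repeats in all 6, as it was in 63.8% of all listed RNAs. For alternative end joining 3 of 5 were listed. POLQ, the polymerase of that route, had a log2 difference of 6.88 ± 0.70 (SE), XRCC1, a scaffold of single-strand break repair, 2.93 ± 0.76, and LIG3, its ligase partner, 2.02 ± 0.32. Over the 21 RNAs repeat 3 was below both others in 15, above both in 4 and between them in 2. Of all listed RNAs it was below both in 63.8% and above both in 23.9%. The 4 above were the core RNAs named before.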

How the data were processed

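RNA precipitated with PD-L1 antibody or isotype IgG was sequenced in 3 libraries each. Build hg19, HOMER 4.8.3 and TopHat2 2.0.14 are named, per the submitters' processing notes, without roles. Per the file headers, the deposited values are scores, the sum of peak scores per gene and library, while the peak calling settings, scaling and read depth behind them are not stated, so no counting interval is given. Low scores were checked for whole steps (tolerance 0.015). The authors' deposited DNA damage gene symbols, classed as other, served to mark list membership. From the scores, means, SDs and differences of mean log2(score + 1) were computed in Python 3.11.15 with pandas 2.3.3 after checks on simulated data. No test was run, since the table was selected on the same contrast. Members and lists were chosen with earlier results of these data known. The RNAs named were the 3 members, listed RNAs of the end joining list, the 3 nearest RNAs per member, and members of counts of 5 or fewer. Others named for extreme values were chosen after values were seen. Transcript features came from GENCODE 29, matched by Entrez ID for 3129 of 3152 RNAs (99.3%). Alternatives were a pseudocount of 0.1, zeros replaced by the smallest listed score (1.81), rescaled libraries, a minimum mean PD-L1 score of 10, and leaving out each library.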

Additional observations from a re-analysis of the deposited data

How the results depend on the processing

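With a pseudocount of 0.1 the log2 difference rose to 8.97 for APLF and 7.47 for DCLRE1C, and the SD of the PD-L1 repeats of C9orf142 to 5.13. With zeros replaced by the smallest listed score the APLF difference was 4.79. Rescaling libraries to the same sum lowers PD-L1 and raises IgG scores above 0, and moved the median difference of all listed RNAs by -1.66. With this rescaling the APLF difference was 4.86. The SD of the PD-L1 repeats was 0.64 for APLF and 0.83 for DCLRE1C, and the count of separated end joining RNAs was 9. The C9orf142 difference was then 0.24, with 23.9% of listed RNAs below it, against 0.286% with zeros replaced and 2.41% and 2.82% without PD-L1 repeats 1 and 2. Leaving out 1 library at a time, the difference ranged from 5.56 to 5.75 for APLF, from 3.88 to 4.98 for DCLRE1C and from -0.81 to 1.99 for C9orf142, where the value of -0.81, without PD-L1 repeat 3, reversed the direction. The SD of the PD-L1 repeats ranged from 0.016 to 0.27 for APLF, from 0.0013 to 1.56 for DCLRE1C and from 0 to 3.96 for C9orf142, each lowest without PD-L1 repeat 3. The end joining count was 20 without any 1 library, a step that cannot lower it, and 20 with a minimum mean PD-L1 score of 10. That minimum only removes RNAs, so it could not change the 3 differences. Taking differences between same-numbered repeats (replicate block) cannot change a mean difference, so the values stayed at 5.68, 4.25 and 1.06 by construction. For C9orf142 the SE was 2.37 against 2.03. For APLF and DCLRE1C the SE could not change either, since their IgG scores were all 0. Deviations from the group means of same-numbered libraries had correlations of -0.12, 0.071 and -0.079 across RNAs for numbers 1 to 3. In IgG repeats 1 to 3, 2149, 1440 and 1396 of the 3152 listed RNAs were at 0. With so many scores of 0, these correlations cannot decide whether same-numbered libraries are paired, and the labels give only the number. Read depth is unknown, so how far depth limits the scores of 0 cannot be given.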
